A study of Homo sapiens with 12 samples.

Results

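Transcripts of 35 genes that carry out or restrain apoptosis were followed across all 6 groups of samples: caspases, members of the BCL2 family, mitochondrial death factors, inhibitors of apoptosis, death receptors and the proteins that act at those receptors. The genes were taken as a named list, found in the count files by Ensembl gene and symbol, and make up 35 of 58302 genes counted. By their textbook function 26 are pro-death and 9 are pro-survival. Of the 35, 27 (19 pro-death and 8 pro-survival) averaged 20 or more counts per sample and entered the tests, among 13454 genes in all, and the remaining 8 are described by their counts.

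The cells were derived from H1, a human embryonic stem cell line. WT cells carry no targeted deletion. In dKO cells the catalytic domains of both H3K27me3 demethylases, UTX (KDM6A) and JMJD3 (KDM6B), had been deleted by CRISPR with a donor cassette and drug selection, and UTX was targeted in a line that already lacked JMJD3, so dKO is a clonal line. WT and dKO ESCs were turned into neural progenitor cells (NPCs) by dual SMAD inhibition, and rosettes were picked and grown as spheres in bFGF and EGF. The 6 groups had 2 samples each: WT NPC and dKO NPC (called passage 2 here, which the study's text gives and the labels do not), WT NPC P4 and dKO NPC P4 (passage 4), and WT-D28 and dKO-D28, cells 28 days after withdrawal of bFGF and EGF in medium with GDNF, BDNF and cAMP. Nothing in the labels says that the 2 samples of a group were separate cultures, so p-values measure the spread between these samples, which may be technical. No batch is named in the labels, and a batch and a group cannot be told apart.

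Total counts were lowest at passage 2 (756942 to 1438807), between 3174410 and 4220037 at passage 4, and between 4082248 and 10601172 at D28, so that 3 counts correspond to between 0.297 and 3.86 CPM (counts scaled to a common library size), a limit that covers counting error alone. Replicates of dKO-D28 differed most, with a chi-square of 12.5 per degree of freedom against 1.63 to 2.90 in the other 5 groups. KDM6A was still counted in dKO NPCs (39.2 and 38.3 CPM, against 60.5 and 53.6 CPM in WT NPCs), and so was KDM6B, but counts over whole genes do not test the deletion of a catalytic exon. Of 3 pluripotency markers, POU5F1 and NANOG had no count in any group, whereas LIN28A had 78.7 to 86.2 CPM in WT NPC and dKO NPC, 0.506 to 0.987 CPM in WT NPC P4 and WT-D28 and 30.9 to 79.1 CPM in dKO NPC P4 and dKO-D28. The 10 neuronal markers summed to 5184 to 5762 CPM in WT NPC P4 and 3994 to 4021 CPM in WT-D28, and to 623 to 1367 CPM in the other 4 groups. NEUROD2 and NEUROD6 were at 0 in each of those 4. WT-D28 also had no count of NEUROD6 and only 0.473 and 0.3965 CPM of NEUROD2, against 263 and 252 CPM of NEUROD2 in WT NPC P4. The 8 mesenchymal or neural crest markers summed to 1749 to 1768 CPM in dKO NPC P4, 874 to 1038 CPM in dKO NPCs and 158 to 411 CPM elsewhere. The libraries labelled WT NPC P4 thus had more neuronal RNA than those labelled WT NPC. In bulk RNA, fewer cells of a type and less RNA per cell cannot be told apart.

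Apoptosis can start inside the cell or at its surface. In the intrinsic pathway, BH3-only proteins sense stress, block the pro-survival BCL2 proteins or switch on the pore formers BAX and BAK1, and the cytochrome c that leaks from mitochondria builds the apoptosome with APAF1 and caspase-9. In the extrinsic pathway, ligand-bound death receptors recruit adaptors and caspase-8, a step that FLIP (CFLAR) and decoy receptors restrain. Neural progenitors are lost by apoptosis in large numbers during brain development, and p53 is a well known inducer of several of these genes, among them BAX, BBC3, PMAIP1, FAS and TNFRSF10B.

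Promoters are shown for 3 called members whose changes are described below, PMAIP1 and BMF, which were higher in dKO NPC P4, and CFLAR, which was lower. The 250 bases before a RefSeq start site (GRCh38.p14) are printed 5′ to 3′ on the gene's strand, with matches on either strand to TGANTCA, the AP-1 type letters, and GGGCGG, the SP1 type letters, in capitals. The PMAIP1 window is chr18:59899746-59899995 (plus strand), the BMF window chr15:40108880-40109129 (minus strand, 1 of 2 RefSeq start sites) and the CFLAR window chr2:201132531-201132780 (plus strand, 1 of 4 start sites, inside the gene).
PMAIP1: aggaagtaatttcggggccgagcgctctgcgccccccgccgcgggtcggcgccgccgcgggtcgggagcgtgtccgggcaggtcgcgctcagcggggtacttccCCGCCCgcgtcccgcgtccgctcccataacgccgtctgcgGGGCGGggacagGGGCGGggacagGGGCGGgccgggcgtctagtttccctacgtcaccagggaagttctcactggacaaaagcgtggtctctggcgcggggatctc
BMF: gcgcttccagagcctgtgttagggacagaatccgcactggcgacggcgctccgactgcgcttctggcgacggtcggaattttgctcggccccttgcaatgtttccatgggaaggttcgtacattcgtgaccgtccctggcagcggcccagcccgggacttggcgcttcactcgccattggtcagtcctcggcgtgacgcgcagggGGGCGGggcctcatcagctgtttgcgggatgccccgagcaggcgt
CFLAR: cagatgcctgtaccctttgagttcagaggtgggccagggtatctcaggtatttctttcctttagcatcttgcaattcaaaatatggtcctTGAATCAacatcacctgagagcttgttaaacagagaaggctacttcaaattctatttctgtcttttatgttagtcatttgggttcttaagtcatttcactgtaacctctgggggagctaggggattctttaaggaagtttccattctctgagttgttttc
GGGCGG was present 4 times in the PMAIP1 window, once in the BMF window and not in this CFLAR window, which held 1 TGANTCA. Of 35116 RefSeq windows of this length, 42.6% held GGGCGG and 6.57% held TGANTCA. The table held 49 windows of 27 of the 35 members, of which 33 windows held GGGCGG and 4 held TGANTCA (1 each of BBC3, CASP8, CFLAR and FAS). Of the other CFLAR windows, 2 held GGGCGG. A match is a run of letters and was not tested as a binding site.

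Per kilobase of exon, the pro-survival gene MCL1 had the highest mean level of the 35 over the 12 samples (63.9 CPM per kb, range 46.1 to 93.0). It was followed by the death receptor TNFRSF10B (36.7 CPM per kb) and the pro-survival BCL2L1 (33.0 CPM per kb), and the ranges of all 3 overlapped. The order did not hold in every group, since TNFRSF10B exceeded MCL1 in dKO NPC P4 (57.9 ± 2.2 against 46.3 ± 0.30 CPM per kb, SD, n = 2) and BCL2L1 and MCL1 were within their spread in WT-D28 (60.3 ± 1.6 and 60.04 ± 0.50 CPM per kb). CASP8, the initiator caspase of the receptor pathway, had 0.213 CPM per kb, and CASP10, a close relative of it, 0.0224 CPM per kb. The receptor pathway was thus measured with an abundant receptor and with its initiator caspases near the limit of detection.

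At passage 2, few of these genes were called between WT and dKO NPCs. A gene was called where its fold change exceeded 2 with an unadjusted p under 0.05 in edgeR's quasi-likelihood test. By that rule 1 of 27 members was called, FAS, higher in dKO, beside 4.43% of all genes tested (2.59% higher and 1.84% lower), and DESeq2 called 0 of 27. Without the fold rule, 7 of 27 had an unadjusted p under 0.05 in edgeR. The 4.43% includes the fold rule, so it is not the share to set beside those 7. The share of all genes without the fold rule was not counted, so those 7 cannot be judged against it. FAS was not significant after adjustment (log2 fold change 1.31, standard error (SE) 0.53, edgeR adjusted p = 0.233), and its call was lost without WT NPC replicate 1, without WT NPC replicate 2 and without dKO NPC replicate 2. TNFRSF1A passed the adjusted threshold at a fold below 2 (log2 fold change 0.80, edgeR adjusted p = 0.0233), beside 2.77% of all genes (1.78% higher and 0.989% lower). The median log2 fold change was 0.31 over 19 pro-death members, 0.07 over 8 pro-survival members and 0.004 over all genes tested. The direction of the pro-survival median rested on single libraries, at 0.16 without WT NPC replicate 1 and -0.02 without WT NPC replicate 2. Without WT NPC replicate 2, BAK1 and BOK were called instead, with log2 fold changes of 1.33 and 1.19.

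At passage 4 the difference was broad. In dKO NPC P4, 10 of 27 members were higher and 2 lower than in WT NPC P4, where 11.1% of all genes were called higher and 11.2% lower (22.3% together). Of 19 pro-death members tested, 9 were higher in dKO than in WT (PMAIP1, BMF, FAS, TNFRSF10B, TNFRSF1A, BBC3, BAX, CASP6 and BAK1) and BID was lower. Of 8 pro-survival members, the decoy receptor TNFRSF10D was higher in dKO and CFLAR was lower. Which line had changed since passage 2 is given further below. The median log2 fold change was 0.74 over pro-death members and -0.33 over pro-survival members, and 0.02 over all genes. The pro-survival median was -0.11 with the GC and length correction. At an adjusted p under 0.05, 14 members were higher and 5 lower, in a comparison in which 49.6% of all genes passed. The neuronal and mesenchymal marker sums above also differed between WT NPC P4 and dKO NPC P4, and their part in these results was not tested.

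At D28, 7 of 27 members were higher and 2 lower in dKO-D28 than in WT-D28, against 12.4% and 11.7% of all genes (24.2% together). Of the pro-death members, BMF, PMAIP1, CASP6, TNFRSF10B, FAS and TNFRSF1A were higher in dKO and BOK was lower. Of the pro-survival members, TNFRSF10D was higher in dKO and BCL2L1 was lower. The median log2 fold change was 0.34 over pro-death and -0.07 over pro-survival members, and 0.003 over all genes. The pro-survival median was -0.33 without dKO-D28 replicate 1 and 0.21 without dKO-D28 replicate 2, so its direction depended on which of these libraries was used. At an adjusted p under 0.05, 11 members were higher and 6 lower, where 54.2% of all genes passed. The count was 9 without dKO-D28 replicate 1 and 10 without dKO-D28 replicate 2. WT-D28 and dKO-D28 differed in the neuronal marker sums as well (3994 to 4021 against 623 to 1115 CPM), and their part in these results was not tested.

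**Figure D1:**
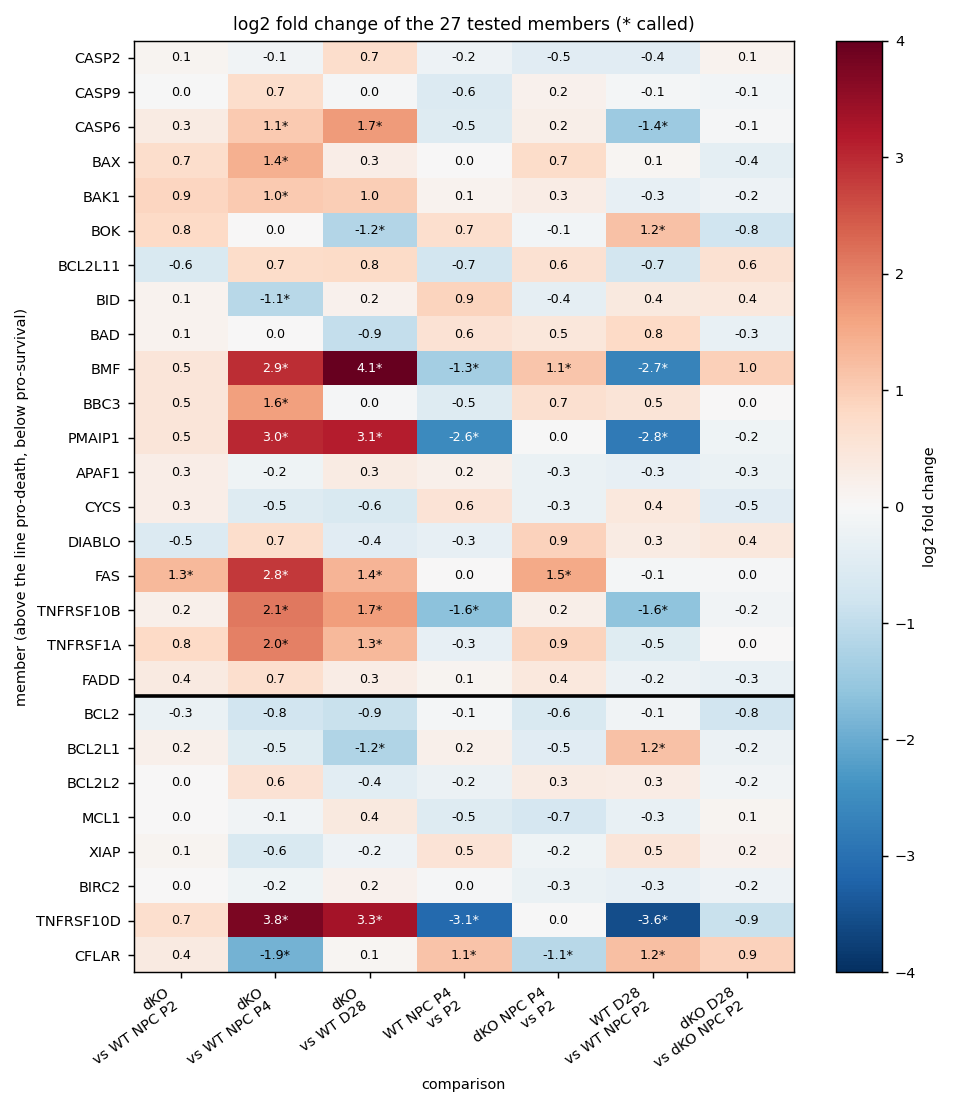
Heatmap of log2 fold changes of the 27 tested members (rows) in 7 comparisons (columns), with pro-death members above and pro-survival members below the line and an asterisk where a member was called. The column for dKO against WT at passage 4 holds 10 members called higher and 2 called lower, the column for passage 2 holds 1 call, and the column for dKO-D28 against dKO NPC holds none.

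The BH3-only genes PMAIP1 and BMF showed the widest gaps among pro-death members. PMAIP1 (NOXA, an inhibitor of MCL1; ENSG00000141682, hg38 chromosome 18, 59899996 to 59904305) had 25.7 and 16.9 CPM in WT NPC, 30.3 and 26.5 CPM in dKO NPC, 3.62 and 3.29 CPM in WT NPC P4, 27.2 and 29.2 CPM in dKO NPC P4, 2.96 and 2.78 CPM in WT-D28 and 25.1 and 25.3 CPM in dKO-D28. The 4 samples of WT NPC P4 and WT-D28 lay far below the other 8, and the 6 dKO samples stayed between 25.1 and 30.3 CPM. In dKO against WT the log2 fold change reached 3.03 (SE 0.25, adjusted p = 7.01e-08) at passage 4 and 3.13 (SE 0.22, adjusted p = 6.6e-09) at D28, both from edgeR. From passage 2, PMAIP1 fell in WT by 2.56 to passage 4 and by 2.82 to D28 on the log2 scale, whereas in dKO the changes were -0.01 and -0.17 and were not called.

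BMF (BCL2-modifying factor, a BH3-only protein tied to loss of attachment; ENSG00000104081, chromosome 15, 40087890 to 40108892) had 55.3 and 40.4 CPM in WT NPC, 66.6 and 62.7 CPM in dKO NPC, 17.1 and 19.2 CPM in WT NPC P4, 142 and 139 CPM in dKO NPC P4, 7.33 and 7.24 CPM in WT-D28 and 78.3 and 172 CPM in dKO-D28. Groups did not overlap at any stage, and the pair of dKO-D28 samples differed by more than any other pair. In dKO cells the log2 fold change against WT was 2.95 (SE 0.35, edgeR adjusted p = 0.000106) at passage 4 and 4.11 (SE 0.35, adjusted p = 7.94e-06) at D28, and the latter was 4.57 without dKO-D28 replicate 1 and 3.43 without dKO-D28 replicate 2. BMF moved in opposite directions with passage, falling in WT (log2 fold change -1.35, edgeR adjusted p = 0.0411) and rising in dKO (1.12, adjusted p = 0.0448). The fall in WT lost its call without WT NPC replicate 1. Of its exonic bases, 8.46% overlap the antisense gene BMF-AS1, which had 12.2 and 12.3 CPM in dKO NPC P4 and 0.658 and 1.01 CPM in WT NPC P4. The strand setting of the counting was not given in the sources used here, so reads of BMF and BMF-AS1 in the shared bases cannot be told apart.

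BBC3 (PUMA, which binds every pro-survival BCL2 protein; ENSG00000105327, chromosome 19, 47220822 to 47232766) had 19.3 and 24.2 CPM in WT NPC, 36.2 and 25.8 CPM in dKO NPC, 13.2 and 17.7 CPM in WT NPC P4, 51.9 and 45.2 CPM in dKO NPC P4, 32.8 and 31.0 CPM in WT-D28 and 30.6 and 31.6 CPM in dKO-D28. The dKO NPC P4 samples were the highest of the 12, and the D28 groups overlapped. In edgeR the log2 fold change reached 1.64 (SE 0.19, edgeR adjusted p = 2.85e-06) at passage 4. BID, which links caspase-8 to mitochondria once it is cut (ENSG00000015475, chromosome 22, 17734138 to 17774770), had 26.3 and 25.8 CPM in WT NPC P4 and 11.5 and 12.6 CPM in dKO NPC P4, and 12.5 to 21.9 CPM in the other 8 samples. It was the 1 pro-death member called lower at a fold over 2 at passage 4, with a log2 fold change of -1.11 (SE 0.20, edgeR adjusted p = 0.000254).

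The other tested BH3-only genes were not called in any pair of groups. BCL2L11 (BIM) ranged from 29.3 to 61.1 CPM and BAD from 23.2 to 50.4 CPM. BCL2L11 passed the adjusted threshold at folds below 2 at passage 4 (log2 fold change 0.74, edgeR adjusted p = 0.00192) and at D28 (0.75, adjusted p = 0.000757), and BAD was lower at D28 (-0.95, adjusted p = 0.000803). HRK had 2 to 47 counts and BIK 0 to 5 counts per sample and were not tested.

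The pore formers differed among themselves. BAX (ENSG00000087088, chromosome 19, 48954815 to 48961798) had 25.7 and 27.9 CPM in WT NPC, 39.2 and 49.5 CPM in dKO NPC, 28.0 and 27.3 CPM in WT NPC P4, 80.5 and 68.6 CPM in dKO NPC P4, 30.4 and 26.7 CPM in WT-D28 and 32.0 and 36.1 CPM in dKO-D28. WT samples stayed within 25.7 to 30.4 CPM at every stage, and dKO NPC P4 was above all others, with a log2 fold change of 1.43 (SE 0.16, edgeR adjusted p = 1.61e-06). BAK1 (ENSG00000030110, chromosome 6, 33572547 to 33580293), the partner of BAX on mitochondria, had 7.72 and 12.5 CPM in WT NPC, 19.2 and 19.5 CPM in dKO NPC, 9.87 and 13.2 CPM in WT NPC P4, 23.3 and 24.6 CPM in dKO NPC P4, 9.70 and 7.24 CPM in WT-D28 and 15.3 and 18.3 CPM in dKO-D28. All 6 dKO samples were above all 6 WT samples. It was called at passage 4 alone of the dKO and WT comparisons (log2 fold change 1.04, SE 0.23, edgeR adjusted p = 0.00154) and lay just under a fold of 2 at D28 (1.00, adjusted p = 0.00117), and the passage 4 call was lost without WT NPC P4 replicate 1 and when GC content and gene length were corrected for.

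BOK, a pore former that acts without BAX or BAK1 (ENSG00000176720, chromosome 2, 241551424 to 241574131), had 7.72 and 11.8 CPM in WT NPC, 17.0 and 18.1 CPM in dKO NPC, 14.8 and 17.5 CPM in WT NPC P4, 18.5 and 14.0 CPM in dKO NPC P4, 24.0 and 21.7 CPM in WT-D28 and 8.36 and 11.6 CPM in dKO-D28. WT rose towards D28 (log2 fold change 1.16, edgeR adjusted p = 0.00461) and the change in dKO was -0.80 and was not called, so that dKO-D28 was below WT-D28 (-1.18, SE 0.21, adjusted p = 0.000198), whereas at passage 2 the dKO samples had been the higher ones. The D28 call was lost without dKO-D28 replicate 1 and after the GC and length correction, and the rise in WT without WT NPC replicate 1 and after the same correction.

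Pro-survival BCL2 genes changed less. BCL2L1 (BCL-XL; ENSG00000171552, chromosome 20, 31664452 to 31723989) had 107 and 117.5 CPM in WT NPC, 126 and 134 CPM in dKO NPC, 129.7 and 132 CPM in WT NPC P4, 97.2 and 90.6 CPM in dKO NPC P4, 248 and 258 CPM in WT-D28 and 107 and 114 CPM in dKO-D28. WT-D28 stood apart from the other 10 samples. WT rose by a log2 fold change of 1.16 (SE 0.11, edgeR adjusted p = 6.56e-07) from passage 2 to D28, the change in dKO was -0.24, and dKO-D28 was lower than WT-D28 by a log2 fold change of -1.20 (SE 0.10, adjusted p = 5.35e-08). At passage 4 BCL2L1 was also lower in dKO, at a fold below 2 (log2 fold change -0.48, edgeR adjusted p = 0.00132). Of its exonic bases 41.3% overlap the antisense gene ABALON, which had 95.0 and 94.3 CPM in WT-D28 and 29.8 to 48.1 CPM elsewhere, so counts of the pair cannot be told apart in the shared bases. BCL2, the founding member of the family, was not called in any comparison but was lower in dKO at an adjusted p under 0.05 at passage 4 (log2 fold change -0.76, edgeR adjusted p = 0.00232) and D28 (-0.88, adjusted p = 0.00034). MCL1 ranged from 287 to 579 CPM and BCL2L2 from 25.1 to 43.2 CPM, and neither was called at a fold over 2. At an adjusted p under 0.05, BCL2L2 was higher in dKO at passage 4 (log2 fold change 0.57, edgeR adjusted p = 0.0209) and lower at D28 (-0.43, adjusted p = 0.0463), and MCL1 was higher at D28 (0.40, adjusted p = 0.0134).

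Set against each other per kilobase, the 8 BH3-only genes summed to 0.567 and 0.437 of the 4 pro-survival BCL2 genes in WT NPC P4 and to 1.16 and 1.14 in dKO NPC P4. In the other 8 samples the ratio lay between 0.376 and 0.837, the highest being dKO-D28 replicate 2. The BH3-only sum itself was 49.7 and 40.3 CPM per kb in WT NPC P4 and 92.4 and 87.7 CPM per kb in dKO NPC P4, and the pro-survival sum 87.8 and 92.3 against 79.6 and 77.2 CPM per kb. The sums describe RNA levels and were not tested.

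Among caspases, CASP6 (an executioner caspase that cuts lamins and is known in neurons; ENSG00000138794, chromosome 4, 109688622 to 109703583) had 19.3 and 21.3 CPM in WT NPC, 25.9 and 25.1 CPM in dKO NPC, 13.8 and 14.7 CPM in WT NPC P4, 31.4 and 28.0 CPM in dKO NPC P4, 6.86 and 8.13 CPM in WT-D28 and 22.5 and 26.2 CPM in dKO-D28. All 6 dKO samples were above all 6 WT samples, and the WT-D28 pair was the lowest. The log2 fold change in dKO was 1.06 (SE 0.19, edgeR adjusted p = 0.000199) at passage 4, a call lost without dKO NPC P4 replicate 1, and 1.70 (SE 0.18, adjusted p = 7.24e-07) at D28. From passage 2 to D28, WT fell by 1.44 on the log2 scale (edgeR adjusted p = 0.000163) and dKO changed by -0.06. The initiator caspases CASP2 (55.6 to 99.4 CPM) and CASP9 (11.1 to 23.2 CPM) were not called in any comparison, although CASP2 at D28 (log2 fold change 0.70, edgeR adjusted p = 0.000404) and CASP9 at passage 4 (0.69, adjusted p = 0.0126) passed the adjusted threshold below a fold of 2.

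CASP8, CASP10 and CASP4 had too few counts for the main test. CASP8 had 1 to 13 counts and CASP10 0 to 4 counts in each of the 12 samples. CASP4, an inflammatory caspase that senses bacterial lipopolysaccharide in the cell, had 2 and 2 counts in WT-D28 and 21 and 36 counts in dKO-D28, from smaller libraries. In a fit of all 34982 genes that had a count somewhere, in which 17.3% of genes were called at D28, it was called higher in dKO (edgeR adjusted p = 4.12e-11), and no fold is given against 2 counts per library. In the other 8 samples CASP4 had 0 to 4 counts, from libraries of unequal depth. The 4 and 4 counts in dKO NPC were 2.96 and 2.79 CPM, against 0 and 0.734 CPM in WT NPC and 5.015 and 6.845 CPM in dKO-D28. That passage 2 difference was not called in the wider fit. The fit did call CASP4 higher in dKO at passage 4 (edgeR adjusted p = 0.156, 14.7% of genes called), from 3 and 1 counts against 0 and 0. With passage in dKO it was called lower (edgeR adjusted p = 0.0698, 8.4% of genes called).

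The mitochondrial and apoptosome genes APAF1 (54.0 to 94.4 CPM), CYCS (cytochrome c, 45.6 to 96.9 CPM) and DIABLO (SMAC, which blocks XIAP, 4.94 to 12.3 CPM) were not called in any pair of groups. CYCS was lower in dKO at an adjusted p under 0.05 at passage 4 (log2 fold change -0.53, edgeR adjusted p = 0.0134) and at D28 (-0.60, adjusted p = 0.00437). The inhibitors of apoptosis XIAP (47.8 to 88.1 CPM) and BIRC2 (cIAP1, 65.5 to 93.4 CPM) were not called either. BIRC3 (cIAP2, a well known NF-kB target) had 1 and 0 counts in WT NPC P4 and 16 and 24 counts in dKO NPC P4, with 0 to 7 counts in the other 8 samples. It was called higher in dKO at passage 4 in that wider fit (edgeR adjusted p = 8.86e-06), where 14.7% of genes were called. It was also called higher in dKO at D28 (edgeR adjusted p = 0.0236, 17.3% of genes called), from 5 and 7 counts against 0 and 4. With passage in dKO it was called higher too (edgeR adjusted p = 0.0426, 8.4% of genes called).

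All 3 tested death receptors were called higher in dKO, at passage 4 and at D28. FAS (CD95; ENSG00000026103, chromosome 10, 88953813 to 89029605) had 3.86 and 3.67 CPM in WT NPC, 8.14 and 10.5 CPM in dKO NPC, 4.94 and 2.78 CPM in WT NPC P4, 28.4 and 24.9 CPM in dKO NPC P4, 4.02 and 3.07 CPM in WT-D28 and 7.16 and 10.8 CPM in dKO-D28. WT samples stayed under 5 CPM, around the 3-count limit in the passage 2 libraries, and each dKO sample was above each WT sample. In edgeR the log2 fold change reached 2.82 (SE 0.31, edgeR adjusted p = 1.56e-06) at passage 4 and 1.36 (SE 0.29, adjusted p = 0.000845) at D28. With passage FAS rose in dKO (1.51, edgeR adjusted p = 0.00326), beside a change of 0.00 in WT.

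TNFRSF1A (TNF receptor 1; ENSG00000067182, chromosome 12, 6328757 to 6342114) had 33.4 and 35.3 CPM in WT NPC, 55.5 and 64.8 CPM in dKO NPC, 29.3 and 26.1 CPM in WT NPC P4, 109 and 112 CPM in dKO NPC P4, 23.7 and 25.6 CPM in WT-D28 and 59.0 and 62.0 CPM in dKO-D28. The WT and dKO ranges did not overlap, and dKO NPC P4 was the highest. The log2 fold change reached 2.01 (SE 0.14, edgeR adjusted p = 6.66e-09) at passage 4 and 1.296 (SE 0.13, adjusted p = 3.33e-07) at D28.

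TNFRSF10B (TRAIL receptor 2, DR5; ENSG00000120889, chromosome 8, 23020133 to 23069031) had 203 and 220.3 CPM in WT NPC, 224 and 265 CPM in dKO NPC, 66.8 and 68.6 CPM in WT NPC P4, 298 and 282 CPM in dKO NPC P4, 70.6 and 68.0 CPM in WT-D28 and 237 and 203 CPM in dKO-D28. The 4 samples of WT NPC P4 and WT-D28 lay near 70 CPM and the other 8 above 200 CPM. The log2 fold change in dKO was 2.10 (SE 0.12, edgeR adjusted p = 1.03e-09) at passage 4 and 1.67 (SE 0.11, adjusted p = 5.82e-09) at D28. WT fell by 1.65 to passage 4 and by 1.62 to D28 on the log2 scale, and the dKO changes of 0.25 and -0.15 were not called.

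TNFRSF10D (a TRAIL decoy receptor with a truncated death domain; ENSG00000173530, chromosome 8, 23135588 to 23164027) had 41.2 and 32.3 CPM in WT NPC, 54.7 and 59.2 CPM in dKO NPC, 3.62 and 4.56 CPM in WT NPC P4, 53.1 and 59.7 CPM in dKO NPC P4, 3.07 and 2.97 CPM in WT-D28 and 35.3 and 25.9 CPM in dKO-D28. It lies near TNFRSF10B on chromosome 8 and had the same low groups, WT NPC P4 and WT-D28. In dKO its log2 fold change against WT was 3.76 (SE 0.24, edgeR adjusted p = 2.57e-09) at passage 4 and 3.32 (SE 0.22, adjusted p = 3.23e-09) at D28. A member of the pro-survival side thus had the largest positive log2 fold change of the 27 at passage 4. TNFRSF10A (TRAIL receptor 1), from the same cluster, had 3 and 1 counts in WT NPC P4, 14 and 20 counts in dKO NPC P4, 2 and 2 counts in WT-D28 and 17 and 11 counts in dKO-D28. At passage 2, TNFRSF10A had 3 and 3 counts in WT NPC and 4 and 4 counts in dKO NPC, from shallower libraries. In the fit of all genes that had a count, it was called higher in dKO at passage 4 (edgeR adjusted p = 0.0014) and at D28 (adjusted p = 2.94e-06). From passage 2 it was called lower in WT at D28 (edgeR adjusted p = 0.00424, 16.0% of genes called). So it was in WT at passage 4 (edgeR adjusted p = 0.141, 12.8% of genes called). The changes in dKO over the same steps were not called.

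At the receptor itself, CFLAR (FLIP, which keeps caspase-8 from firing; ENSG00000003402, chromosome 2, 201116154 to 201176687) had 20.6 and 19.1 CPM in WT NPC, 19.97 and 30.7 CPM in dKO NPC, 47.1 and 39.7 CPM in WT NPC P4, 10.2 and 13.3 CPM in dKO NPC P4, 43.0 and 47.3 CPM in WT-D28 and 54.2 and 42.0 CPM in dKO-D28. dKO NPC P4 was the lowest group, and the D28 groups overlapped. The log2 fold change in dKO at passage 4 was -1.88 (SE 0.21, edgeR adjusted p = 2.12e-06). With passage CFLAR rose in WT (1.14, edgeR adjusted p = 0.00251) and fell in dKO (-1.12, adjusted p = 0.00654), and both calls were lost after the GC and length correction, the latter also without dKO NPC replicate 2 and without dKO NPC P4 replicate 1. From passage 2 to D28 it rose in WT (1.20, edgeR adjusted p = 0.000926, a call lost under the same correction) and in dKO by less than a fold of 2 (0.91, adjusted p = 0.0144). The adaptor FADD (13.1 to 27.2 CPM) was not called in any comparison, and 59.2% of its exonic bases overlap an antisense gene. FADD passed the adjusted threshold at passage 4, higher in dKO at a fold below 2 (log2 fold change 0.68, edgeR adjusted p = 0.00796). TRADD, the adaptor of TNF receptor 1, had 0 to 17 counts and was not tested.

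**Figure D2:**
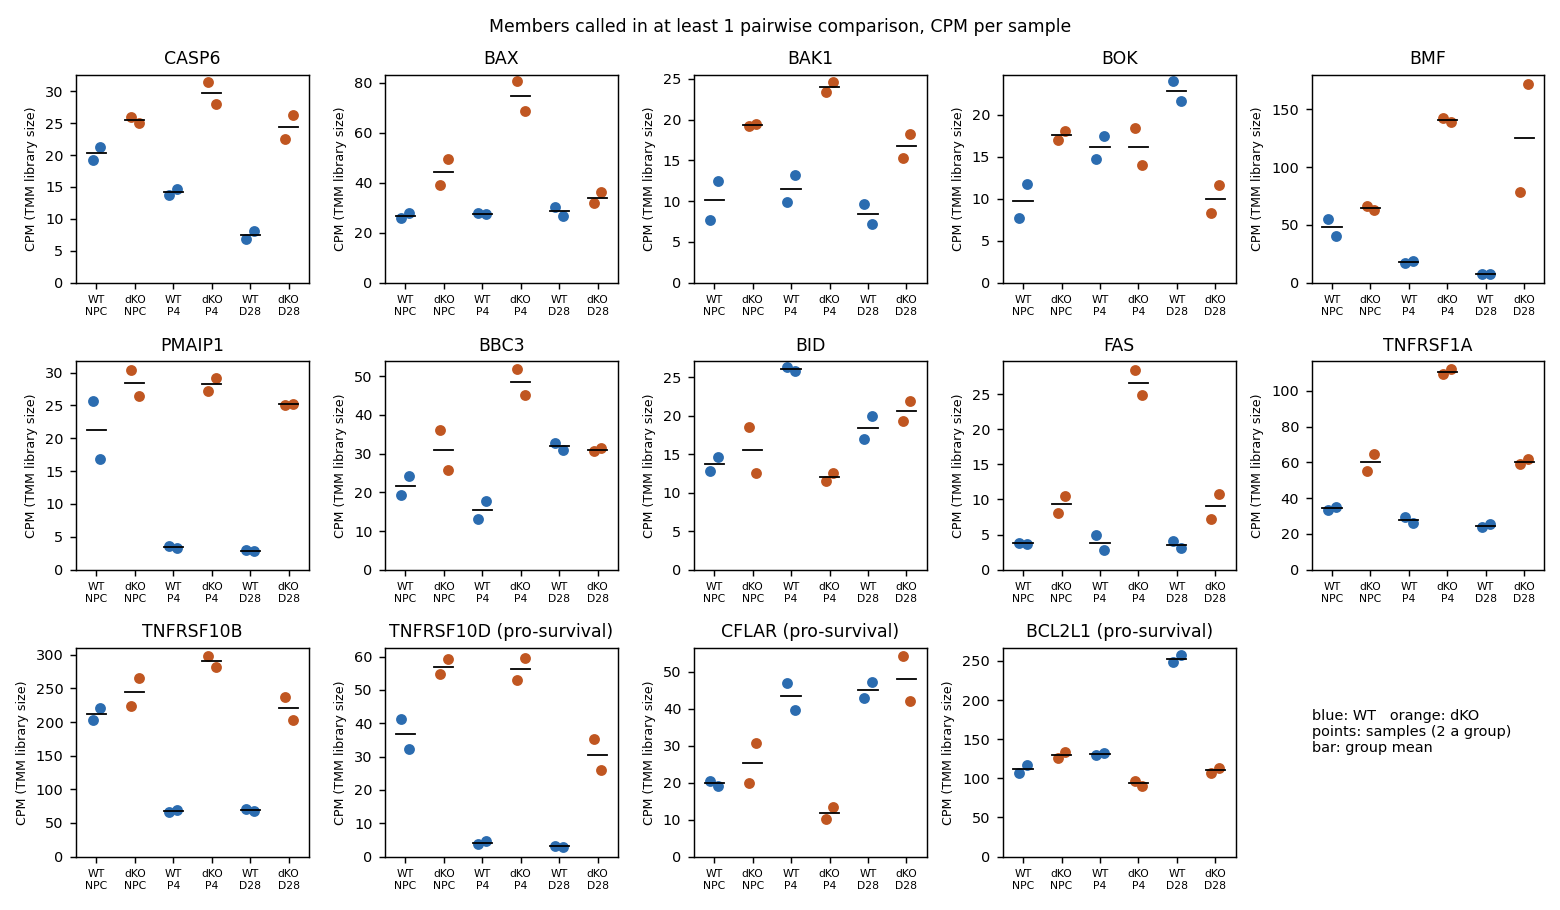
CPM (vertical axes, TMM library sizes) of the 14 members called in at least 1 pair of groups, with a point for each of the 12 samples, bars at the means of 2 samples, WT in blue and dKO in orange. PMAIP1, TNFRSF10B and TNFRSF10D were lowest in WT NPC P4 and WT-D28, FAS, TNFRSF1A and BAX were highest in dKO NPC P4, and BCL2L1 was highest in WT-D28.

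Whether WT or dKO moved was read from each line's own change, with the test of the difference. The comparisons below share the WT and dKO samples of each stage with those above, so they are the same measurements set out another way. From passage 2 to passage 4, 1 of 27 members rose and 4 fell in WT (19.8% of all genes called, 10.3% higher and 9.49% lower), and 2 rose and 1 fell in dKO (9.83% of all genes, 4.61% higher and 5.22% lower). At an adjusted p under 0.05, 3 members were higher and 6 lower in WT, where 38.1% of all genes passed, and 6 were higher and 3 lower in dKO, where 19.6% passed (8.35% higher and 11.2% lower). In dKO these 6 were FAS, BMF, TNFRSF1A, BAX, BBC3 and BCL2L11, and the 3 were CFLAR, MCL1 and BCL2L1. In WT the 3 higher were CFLAR, BID and CYCS, and the 6 lower were TNFRSF10D, PMAIP1, TNFRSF10B, BMF, BCL2L11 and MCL1. MCL1 was thus lower with passage in both lines (log2 fold change -0.53 in WT and -0.66 in dKO). The knockout effect at passage 4 differed from that at passage 2 for 11 members (9 in the direction of higher in dKO, 2 lower), where 19.3% of all genes were called (9.72% and 9.57%). Those 11 were TNFRSF10D, PMAIP1, BMF, TNFRSF10B, FAS, BCL2L11, DIABLO, TNFRSF1A, BBC3, CFLAR and BID, and DESeq2 called 9.

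The share of members called with passage was near that of all genes in each line. It was 18.5% against 19.8% in WT and 11.1% against 9.83% in dKO. What follows describes single members. For PMAIP1, TNFRSF10B and TNFRSF10D the change was called in WT alone, with log2 fold changes of -2.56, -1.65 and -3.11, against -0.01, 0.25 and -0.02 in dKO. BMF and CFLAR were called in both lines, in opposite directions, but the BMF fall in WT and both CFLAR calls did not hold in every alternative, as given above. FAS was called in dKO alone (1.51, against 0.00 in WT), and its difference did not hold after adjustment (edgeR adjusted p = 0.123). TNFRSF1A, BBC3, BID, BCL2L11 and DIABLO were called in neither line. TNFRSF1A changed by -0.32 in WT and 0.88 in dKO (adjusted p of the difference 0.00126 from edgeR), BBC3 by -0.51 and 0.65, and BID by 0.90 and -0.36. Of the members called between dKO and WT at passage 4 without such a difference, BAX changed by 0.03 in WT and 0.75 in dKO and CASP6 by -0.52 and 0.22, and BAK1 was already above WT in both dKO samples at passage 2. The neuronal marker sum rose from 1197 to 1367 CPM in WT NPC to 5184 to 5762 CPM in WT NPC P4, and LIN28A fell over the same step. Their part in the WT falls was not tested.

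From passage 2 to D28, 3 of 27 members rose and 5 fell in WT (24.4% of all genes called), whereas none was called in dKO (0 of 27 by edgeR and 0 by DESeq2, with 7.15% of all genes called, 4.01% higher and 3.14% lower). Without the fold rule, 8 members had an unadjusted p under 0.05 in dKO in edgeR. The 7.15% includes the fold rule, so it is not the share to set beside those 8. The share of all genes without the fold rule was not counted, so those 8 cannot be judged against it. At an adjusted p under 0.05, 4 members were higher and 8 lower in WT, where 46.2% of all genes passed (23.2% higher and 22.9% lower). In WT the 4 were CFLAR, BCL2L1, BOK and BAD, and the 8 were TNFRSF10D, PMAIP1, BMF, TNFRSF10B, CASP6, BCL2L11, TNFRSF1A and CASP2. In dKO CFLAR was higher and BCL2 and TNFRSF10D were lower by that rule, where 9.56% of all genes passed (4.31% higher and 5.25% lower). The dKO count at a fold over 2 was 2 without dKO-D28 replicate 1 (BMF and TNFRSF10D), 2 without dKO-D28 replicate 2 (CFLAR and BOK) and 2 without dKO NPC replicate 2 (CFLAR and BCL2). The knockout effect differed between D28 and passage 2 for 9 members (6 higher and 3 lower, where 23.2% of all genes were called): BMF, TNFRSF10D, PMAIP1, TNFRSF10B, CASP6 and BCL2L11 upwards and BOK, BCL2L1 and BAD downwards. The 8 members called in WT stand beside 24.4% of all genes called in WT, a share near theirs. The values for WT and dKO were -2.67 and 0.96 for BMF, -2.82 and -0.17 for PMAIP1, -3.56 and -0.91 for TNFRSF10D, -1.62 and -0.15 for TNFRSF10B, -1.44 and -0.06 for CASP6, 1.16 and -0.24 for BCL2L1 and 1.16 and -0.80 for BOK.

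Genes around these pathways, from lists that do not contain the members, were counted by the same rule, beside the shares of all genes called at passage 4 (22.3%), D28 (24.2%) and passage 2 (4.43%). Of 21 tested p53 target genes, 11 were higher and 0 lower in dKO NPC P4 (median log2 fold change 1.14), led by FDXR (1.86), SPATA18 (1.66) and AEN (1.496). At passage 2, 0 of 21 were called by edgeR or DESeq2, and at D28 4 were higher and 0 lower. At passage 2, 1 of the 21 had an unadjusted p under 0.05 in edgeR whatever its fold, a rule with no share of all genes counted. Of 9 tested NF-kB target genes, 6 were higher and 0 lower at passage 4 (median 2.31), among them the feedback inhibitor TNFAIP3 (log2 fold change 3.78), RELB (3.07) and the adhesion gene ICAM1 (97.6 and 110.7 CPM in dKO NPC P4 against 0.329 and 0.506 CPM in WT NPC P4). At passage 2, 4 of the 9 were already higher, ICAM1 among them (24.4 and 25.1 CPM in dKO NPC against 5.145 and 5.14 CPM in WT NPC). Of 8 tested genes of the ATF4 and CHOP stress response, 3 were higher at passage 4, ATF3 (4.57), SESN2 (1.14) and DDIT3 (1.00), the last at the fold threshold, and DESeq2 called 2 of the 8. SESN2 is also on the p53 list and is counted in both. Of 24 other death pathway genes, 3 were higher (BCL2L12, TRAF1 and PIDD1) and 1 was lower (BNIP3) at passage 4, a share below that of all genes.

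These genes too changed in WT as well as in dKO. With passage in WT, 6 of 9 NF-kB targets were lower and none higher, ATF3 fell by 3.64 on the log2 scale from 59.2 and 59.5 CPM to 5.27 and 4.30 CPM, and 1 of 21 p53 targets was lower. With passage in dKO, 4 of 21 p53 targets were higher, among them GADD45A (log2 fold change 1.27), FDXR (1.21) and SESN2 (1.08). Of the 9 NF-kB targets, ICAM1 rose with passage in dKO (2.07) and CCL2 (-1.01) and TNFAIP2 (-1.10) fell. The pathway lists describe RNA of known targets, and the activity of p53, NF-kB or ATF4 was not measured.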

How the data were processed

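RNA from 12 samples in 6 groups of 2 was sequenced (TruSeq libraries, NextSeq). Per the labels and the study's methods, the authors aligned reads to hg38 with HISAT2 2.0.4, sorted them with SAMtools 1.3.1 and deposited raw counts per Ensembl gene from HTSeq 0.6.0, with no normalization. The annotation release and strand setting are not given in the sources used here.

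Symbols, positions and exonic lengths came from GENCODE, which held 57532 of 58302 gene identifiers (99.8% of counts). The 13454 genes with a mean of 20 or more counts were fitted with edgeR 4.0.16 in R 4.3.3, by its robust quasi-likelihood test with TMM scaling and 1 mean for each of 6 groups. A gene was called where fold exceeded 2 and unadjusted p was under 0.05, the study's thresholds. Benjamini-Hochberg adjusted p-values covered all genes tested. CPM used TMM library sizes. With 2 samples against 2, an exact permutation test cannot go below 0.333, so none was run. DESeq2 1.42.0, other filters, a GC and length correction, a replicate block and the removal of each sample were alternatives. The scripts were tested on simulated data.

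Called members are named with values in each sample, other members by their range, and up to 3 called genes of each other list by fold. The members and lists were chosen with earlier results of these data known.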

Additional observations from a re-analysis of the deposited data

Results flagged for a closer look

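The effect of the double knockout differed between stages, by edgeR's test of the difference itself, for 11 members between passage 4 and passage 2 and for 9 between D28 and passage 2. The values here are differences of log2 fold changes, later stage minus passage 2, with edgeR adjusted p. Groups of 2 samples could not be tested for a sample far from the others. The 2 sets share the passage 2 samples.

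Between passage 4 and passage 2, TNFRSF10D had the largest difference of the 27 members, 3.09 (adjusted p = 9.56e-06), followed by PMAIP1 at 2.55 (adjusted p = 0.00014), BMF at 2.47 (adjusted p = 0.0125) and TNFRSF10B at 1.89 (adjusted p = 1.48e-06). FAS differed by 1.51 (adjusted p = 0.123) and DIABLO by 1.24 (adjusted p = 0.142), and neither passed adjustment. The differences were 1.35 for BCL2L11 (adjusted p = 0.00242), 1.2 for TNFRSF1A (adjusted p = 0.00126) and 1.16 for BBC3 (adjusted p = 0.0172). CFLAR went the other way with -2.25 (adjusted p = 0.000336), as did BID with -1.26 (adjusted p = 0.0209). The BID call was lost without dKO NPC replicate 1, and the BBC3 call without WT NPC replicate 2, without dKO NPC replicate 2, without WT NPC P4 replicate 1 and under the GC and length correction, with or without the replicate block.

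Between D28 and passage 2, BMF differed by 3.63 (adjusted p = 0.0012), TNFRSF10D by 2.65 (adjusted p = 1.3e-05) and PMAIP1 by 2.65 (adjusted p = 3.18e-05). TNFRSF10B differed by 1.46 (adjusted p = 8.85e-06), CASP6 by 1.38 (adjusted p = 0.00305) and BCL2L11 by 1.35 (adjusted p = 0.00131). BOK with -1.96 (adjusted p = 0.0017), BCL2L1 with -1.4 (adjusted p = 8.18e-06) and BAD with -1.08 (adjusted p = 0.0336) went down. The BAD call was lost without WT NPC replicate 1, without dKO NPC replicate 2, without dKO-D28 replicate 1 and under the GC and length correction, with or without the replicate block.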

How the results depend on the processing

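The FAS call at passage 2 (1 member) gave a count of 0 with DESeq2, with the samples of that comparison alone, with a filter of 10 counts in each sample, with the GC and length correction, with that correction plus the replicate block, and at an adjusted p. With each gene of at least 1 count kept, dKO D28 against passage 2 had 1 call in place of 0 and dKO passage 4 against passage 2 had 5 in place of 3, and the pro-death median was 1.02 at passage 4 and 0.66 at D28 and the pro-survival median at passage 4 was -0.21. That pro-survival median was -0.11 under the GC and length correction, with or without the block. Leaving out each sample in turn, which leaves an arm with 1 sample that is assumed to vary like the other groups, gave 0 to 2 calls at passage 2, 11 to 13 at passage 4, 9 to 10 at D28 and 0 to 2 for dKO D28 against passage 2. The medians then ran from 0.258 to 0.403 (pro-death) and -0.024 to 0.159 (pro-survival) at passage 2, 0.739 to 1.097 and -0.4 to -0.277 at passage 4, and 0.288 to 0.491 and -0.33 to 0.214 at D28. The cause of these shifts was not tested. DIABLO's difference between passage 4 and passage 2 was lost in 12 of 19 alternatives, and FAS's in 8 of 19. Same-numbered samples did not deviate together (mean correlation 0.018, range -0.058 to 0.194 over 15 pairs of groups), so the numbers were not taken as pairs. With the replicate block the calls were 1 at passage 2, 12 at passage 4, 9 at D28 and 10 in place of 11 for the difference between passage 4 and passage 2. The passage 2 libraries were the shallowest.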
